A study of Sus scrofa with 8 samples.

Results

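The genes of pericellular and basement membrane collagens, with perlecan and the nidogens, were followed in cartilage cells of the mandibular condyle of pigs (Sus scrofa), in 4 control and 4 osteoarthritis libraries of total RNA. The members were the 10 gene names COL4A1, COL4A2, COL6A1, COL6A2, COL6A3, COL15A1, COL18A1, HSPG2, NID1 and NID2, looked up in the gene names of the deposited table of 18898 rows. That table names 9 of them, and all 9 passed the filter on low counts. A 10th row carries no name in the table and is paired with COL4A1 only by a separate list of gene identifiers, so it is described apart and is not counted among the 9.

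Both groups are wild type by their labels. The surgical protocol, which the labels attach to all 8 samples, describes the osteoarthritis model: a perforation 5.0 mm wide was punched through the posterior-lateral part of the articular disc, with the condyle shielded and the disc attachments left in place. Whether controls had a sham operation, the time after surgery and the age of the pigs are not stated in the sources used here. The sample titles call the replicates biological, but the labels do not say whether they are different pigs. The p-values therefore describe only how far these samples scatter, which may not be the scatter between pigs.

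Chondrocytes sit in a thin pericellular shell in which beaded filaments of collagen VI and the heparan sulfate proteoglycan perlecan lie between the cell surface and the collagen II network. Collagen IV, laminins, nidogens and perlecan are the building blocks of basement membranes, which line vessels and epithelia, and are also found around cartilage cells. Collagens XV and XVIII carry glycosaminoglycan chains and lie at basement membrane zones, and the end of the collagen XVIII chain is released as endostatin, known for its action against vessel growth.

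By the RefSeq annotation of Sscrofa11.1, the build that the submitters' processing notes also name, COL4A1 lies on chromosome 11 from 76858332 to 76997409 and COL4A2 on the same chromosome from 76996885 to 77161617. These 2 genes overlap by 525 bases, and how strand was handled in the authors' quantification is not given in those sources, so reads in that stretch cannot be assigned with certainty. NID2 lies on chromosome 1 from 181699098 to 181773084 and COL15A1 on the same chromosome from 240718128 to 240829188. HSPG2 lies on chromosome 6 from 79849691 to 79958283, COL18A1 on chromosome 13 from 207907835 to 207984082, NID1 on chromosome 14 from 55239327 to 55346948 and COL6A3 on chromosome 15 from 137011549 to 137103687. No position is given here for COL6A1 and COL6A2.

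The libraries held between 11354200 and 25412939 estimated counts. Short non-coding and ribosomal RNA genes took 11.6% to 27.9% of the counts in controls and 2.30% to 3.48% in osteoarthritis. Among controls, replicates 1 and 3 were the closest pair (Pearson r = 0.97 over log2 CPM) and stood apart from replicates 2 and 4. Osteoclast markers summed to 9.94 and 18.0 CPM in control replicates 1 and 3, to 1331 and 1786 CPM in control replicates 2 and 4, and to 1253 to 2738 CPM in osteoarthritis. Of the 4 listed osteoclast markers 3 were found by name, ACP5, MMP9 and OCSTAMP, and CTSK was not. The sum is mostly ACP5 and MMP9, with OCSTAMP at 10.1 CPM or less. Chondrocyte markers, which check the labelled cell type, were present in all 8 libraries, at summed levels of 6644 to 16079 CPM in controls and 19699 to 135240 CPM in osteoarthritis. In such bulk libraries fewer cells of a type and less RNA per cell cannot be told apart.

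Of the 9 members, 0 differed between the groups in edgeR's quasi-likelihood test at an adjusted p under 0.05, where 0.618% of the 16020 genes tested were called (0.225% higher, 0.393% lower). At an unadjusted p under 0.05 there were 3, COL18A1, COL4A2 and NID2, against 15.2% of all genes. By other tools, DESeq2 called COL18A1 alone among them and 5.22% of all genes, limma-voom called 0, and limma-voom with sample weights called COL4A2, COL18A1, NID1 and NID2 while calling 20.8% of all genes. On the scale of TMM-scaled counts, which are counts relative to library size (CPM) corrected for composition by the trimmed mean of M-values, 6 members had a log2 fold change above 0 and 3 below, with a median of 0.07 beside 0.0049 over all genes. The groups did not overlap in 2 members, NID2 above and COL18A1 below, where 11.2% of all genes had groups without overlap (5.69% above, 5.52% below).

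**Figure D1:**
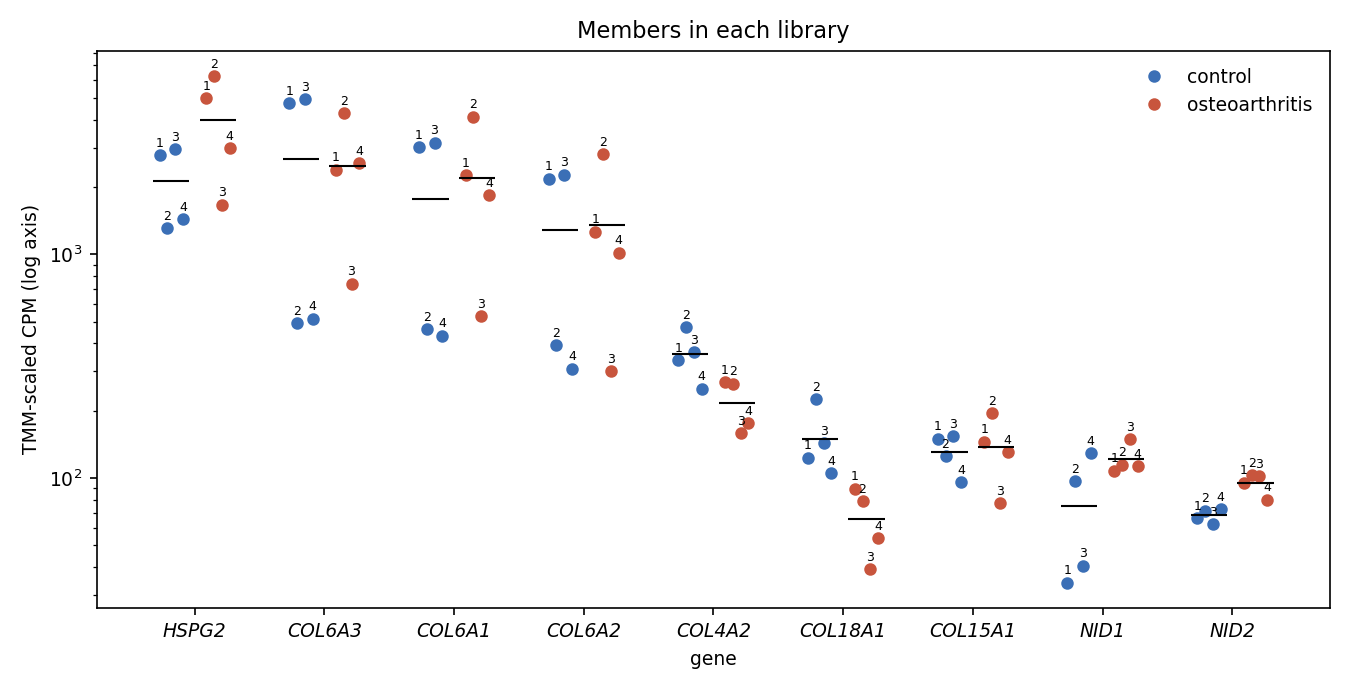
TMM-scaled CPM (log axis) of the 9 members in each library, with the replicate number above each point and a bar at the group mean. The 4 osteoarthritis libraries sit below every control for COL18A1 and above every control for NID2, and the collagen VI genes have control replicates 2 and 4 and osteoarthritis replicate 3 far below the others.

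Collagen VI transcripts were the most variable of the set and did not separate the groups. COL6A1, the alpha-1 chain, was at 3011, 464.0, 3163 and 433.4 CPM in control replicates 1 to 4 and at 2263, 4137, 531.0 and 1835 CPM in osteoarthritis replicates 1 to 4. Control replicates 2 and 4 and osteoarthritis replicate 3 were thus low, the other 5 libraries high, and the groups overlapped. The log2 fold change was 0.31 ± 0.81 (edgeR adjusted p = 0.89), smaller than its standard error.

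COL6A2, the alpha-2 chain, was at 2184, 392.8, 2270 and 308.5 CPM in controls and 1264, 2813, 301.0 and 1019 CPM in osteoarthritis (log2 fold change 0.07 ± 0.82, edgeR adjusted p = 0.98). COL6A3, the longest chain, was at 4745, 493.4, 4937 and 516.5 CPM in controls and 2394, 4293, 740.1 and 2562 CPM in osteoarthritis (-0.10 ± 0.86, edgeR adjusted p = 0.97). The same 3 libraries were the lowest for all chains. The direction of these small differences depended on single libraries: COL6A1 ranged from -0.20 without osteoarthritis replicate 2 to 0.72 without control replicate 3, COL6A2 from -0.58 to 0.46 and COL6A3 from -0.49 to 0.35 in the same pair of fits, none of them called.

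The chains kept close to each other across the 8 libraries. Over log2 CPM, COL6A1 correlated with COL6A2 at r = 0.99 and with COL6A3 at r = 0.98, as a description over 8 libraries that share their depth and makeup. A ratio of TPM (a share of all transcripts after correction for length) within a library does not depend on scaling between libraries. The ratio of COL6A3 to COL6A1 was 0.617, 0.467, 0.609 and 0.480 in controls and 0.462, 0.450, 0.566 and 0.599 in osteoarthritis, with overlap (log2 difference of -0.06, exact two-sided permutation p = 0.51, adjusted 0.57 over 10 ratios). The ratio of COL6A2 to COL6A1 was 0.621, 0.743, 0.615 and 0.626 in controls and 0.505, 0.621, 0.494 and 0.491 in osteoarthritis. Here 3 of 4 osteoarthritis libraries were below every control, and replicate 2 lay among them (log2 difference of -0.31, exact permutation p = 0.086, adjusted 0.14). With 4 against 4 the smallest p this test can give is 0.029.

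Levels of other cell types' markers, and of chondrocyte markers, are given beside collagen VI. The osteoclast markers were low in control replicates 1 and 3, where collagen VI was high. In osteoarthritis they did not run that way, at 2720, 2738, 1956 and 1253 CPM in replicates 1 to 4, highest in replicates 1 and 2, where COL6A1 was also highest. Macrophage markers summed to 20.6 and 21.3 CPM in control replicates 1 and 3 and to 568.5 and 534.5 CPM in control replicates 2 and 4, and in osteoarthritis to 436.9 CPM in replicate 3 against 125.2 to 182.8 CPM in the other 3. All 4 macrophage markers were above 0 in every library, and 0 of 4 were called. The 8 fibroblast and synovial markers summed to 133176, 143207, 137204 and 182308 CPM in controls and to 142140, 168877, 126719 and 115935 CPM in osteoarthritis, with 0 of 8 called. That sum was lowest in control replicates 1 and 3 among the controls, and it is mostly COL1A1. COL1A1 was at 94854, 129534, 98516 and 158751 CPM in controls. COL3A1, THY1, DPT and POSTN ran the other way, each higher in control replicates 1 and 3 than in 2 and 4. COL3A1 was at 13710, 1050, 13747 and 1590 CPM in controls and 6658, 9936, 2705 and 7481 CPM in osteoarthritis. COL1A2, PDGFRA and PI16 did not split the controls either way. Among chondrocyte markers, ACAN and SOX9, picked after their values were seen, were lowest in control replicates 2 and 4 and osteoarthritis replicate 3. SOX9 was at 296.9, 112.3, 302.4 and 64.7 CPM in controls and 386.3, 404.9, 104.2 and 261.0 CPM in osteoarthritis. The others, COL2A1, COL9A1, COL9A2, COL11A1, MATN3, SNORC and HAPLN1, had control replicates 1 and 3 below osteoarthritis replicate 3. The part of these cell types in the collagen VI values was not tested.

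HSPG2 encodes perlecan and ranked 2nd among the members by TPM in 4 libraries and 4th in the other 4. It was at 2780.4, 1315, 2951 and 1438 CPM in controls and at 4982, 6277, 1668 and 2994 CPM in osteoarthritis. Osteoarthritis replicates 1, 2 and 4 were above every control and replicate 3 was among the controls. The group means were 2121 ± 864.2 and 3980.2 ± 2049 CPM (SD, n = 4 each), and the log2 fold change of 0.91 ± 0.51 was not called (edgeR adjusted p = 0.44). It was above 0 in all 20 alternative fits. HSPG2 followed collagen VI across libraries (r = 0.89 with COL6A1, n = 8).

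The nidogens, which bind laminin and collagen IV together, had higher group means in osteoarthritis, and neither was called. NID2 was at 66.1, 71.3, 62.0 and 72.6 CPM in controls and 95.2, 102.7, 102.2 and 79.9 CPM in osteoarthritis, so that each osteoarthritis library was above each control. The means were 68.0 ± 4.89 and 95.0 ± 10.6 CPM, and the 1.40-fold difference did not pass the threshold over all genes (log2 fold change of 0.48 ± 0.17, edgeR adjusted p = 0.23). NID2 was the least variable member among controls. Without each library in turn its log2 fold change stayed between 0.43 and 0.55, with an adjusted p of 0.24 to 0.42 in edgeR.

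NID1 was at 34.1, 96.5, 40.6 and 129.4 CPM in controls and 107.8, 114.9, 149.6 and 112.6 CPM in osteoarthritis. Control replicates 1 and 3 were low, control replicate 4 lay among the osteoarthritis libraries, and the groups overlapped. The log2 fold change was 0.69 ± 0.41 (edgeR adjusted p = 0.47). It was 0.46 without control replicate 1 and 1.09 without control replicate 4, neither called. The ratio of NID2 to NID1 by TPM was 2.30, 0.950, 1.82 and 0.670 in controls and 1.12, 1.16, 0.815 and 0.889 in osteoarthritis, with the osteoarthritis values inside the control range (exact permutation p = 0.40, adjusted 0.50).

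**Figure D2:**
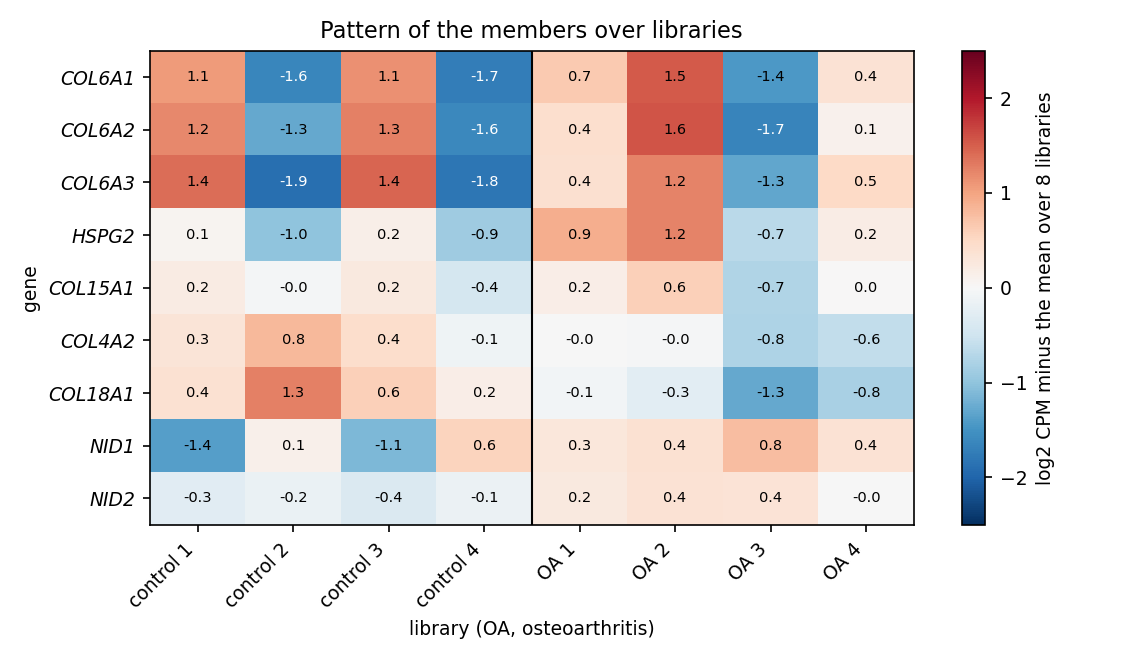
Log2 of the TMM-scaled CPM of each member in each library, as the difference from its mean over the 8 libraries. COL6A1, COL6A2, COL6A3, HSPG2 and COL15A1 share low values in control replicate 4 and osteoarthritis replicate 3, while COL4A2 and COL18A1 share high values in control replicate 2.

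COL18A1 had the lowest unadjusted p of the 9, with a lower group mean in osteoarthritis. It was at 123.4, 224.7, 143.1 and 105.3 CPM in controls and at 89.6, 78.8, 39.1 and 54.0 CPM in osteoarthritis. On this TMM scale every osteoarthritis library was below every control, with control replicate 2 the highest. Control replicate 2 had the lowest TMM factor, 0.424 against 0.873 to 1.55 in the other libraries, which raises its scaled CPM. Relative to library size alone the groups overlapped. Control replicate 2 had 1427 COL18A1 counts of 14990171, and osteoarthritis replicate 1 had 1458 of 14753285. The means were 149.1 ± 52.7 and 65.4 ± 23.0 CPM, a 2.28-fold lower level (log2 fold change of -1.19 ± 0.33, edgeR adjusted p = 0.15). DESeq2 gave an adjusted p of 0.019 and limma-voom with sample weights 0.014. Over all 20 alternatives the adjusted p ran from 0.014 to 0.38.

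COL15A1, its closest relative in the set, was at 150.2, 125.5, 153.5 and 95.5 CPM in controls and 145.3, 195.0, 77.0 and 130.6 CPM in osteoarthritis, with overlap (0.06 ± 0.30, edgeR adjusted p = 0.95). The ratio of COL18A1 to COL15A1 by TPM was 0.595, 1.25, 0.651 and 0.770 in controls. In osteoarthritis it was 0.441, 0.290, 0.353 and 0.286, below every control. The difference of -1.21 on the log2 scale was larger than the SD of either group (0.47 and 0.29) and reached the smallest p possible (exact permutation p = 0.029), but not the threshold after adjustment over the 10 ratios (adjusted p = 0.095 by the exact permutation test).

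COL4A2, the alpha-2 chain of the most common collagen IV network, was at 336.9, 472.8, 366.6 and 251.4 CPM in controls and 268.2, 264.6, 158.7 and 176.3 CPM in osteoarthritis. The groups overlapped only through control replicate 4, which lay below osteoarthritis replicates 1 and 2. The means were 356.9 ± 91.4 and 216.9 ± 57.6 CPM, a 1.65-fold lower level that was not called (log2 fold change of -0.72 ± 0.29, edgeR adjusted p = 0.29). COL4A2 and COL18A1 followed each other across the libraries (r = 0.98 over log2 CPM, n = 8), and COL18A1 was among the 3 genes most like COL4A2 of all those compared.

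Levels of vessel and mural cell markers are given beside these 2 genes. Endothelial markers summed to 183.8, 566.3, 188.8 and 401.0 CPM in controls and 395.2, 333.1, 405.1 and 303.4 CPM in osteoarthritis, with 0 of 9 called and none at 0 in any library. EGFL7 alone gave 256.1 and 143.0 CPM of the sums in control replicates 2 and 4. Its log2 fold change was -1.09, while those of all other endothelial markers were above 0, with a list median of 0.41. Pericyte and smooth muscle markers summed to 564.4 to 726.3 CPM in controls and 371.6 to 453.9 CPM in osteoarthritis, without overlap, with 0 of 7 tested called. The part of these cells in the COL4A2 and COL18A1 values was not tested. Short non-coding and ribosomal RNA genes were likewise at their highest, 27.9% of the counts, in control replicate 2, and its part was not tested either.

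The row paired with COL4A1 did not follow COL4A2. Collagen IV alpha-1 and alpha-2 chains are known to be made together from neighbouring genes. For this row (ENSSSCG00000044700) the controls, replicates 1 to 4, gave 0, 0, 0 and 38 counts, and the osteoarthritis libraries gave 548, 195, 3281 and 4133. In the same order COL4A2 (ENSSSCG00000009545) gave 4408, 3002, 4167 and 5127 counts in controls and 4362, 3127, 5370 and 6599 in osteoarthritis. The groups of the unnamed row did not overlap, and its log2 CPM ran against that of COL4A2 (r = -0.89, n = 8).

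Its log2 fold change of 6.75 ± 1.23 just missed the threshold (edgeR adjusted p = 0.053). The adjusted p was 0.0070 in DESeq2, 0.068 in limma-voom and 0.0021 in limma-voom with sample weights. Of the 20 alternatives 4 called the row. Without control replicate 4 the adjusted p was 0.035 in edgeR, and no fold is given, since the controls left are all at 0. With any 1 of the other 7 libraries left out, the log2 fold change was 6.37 to 7.07, and edgeR's adjusted p was 0.086 to 0.16. The effective length of the row was 2448 to 2477 bases, against 5642 to 5858 bases for COL4A2. Of all 18898 rows it was the 1 row with 0 counts in control replicates 1 to 3 and at least 100 in every osteoarthritis library. This rule was not planned and leaves out control replicate 4, where the row had 38 counts, so it only describes the row. Whether it measures the COL4A1 transcript could not be settled from the table, and no statement on collagen IV alpha-1 is drawn from it. The 3 planned ratios that use it took a pseudocount of 0.01 TPM, which sets their size where the row is at 0. The ratio of COL4A2 to this row differed by -9.39 on the log2 scale, that of this row to NID1 by 7.75 and that of this row to COL6A1 by 8.11 (exact permutation p = 0.029, 0.029 and 0.057, adjusted 0.095, 0.095 and 0.14).

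**Figure D3:**
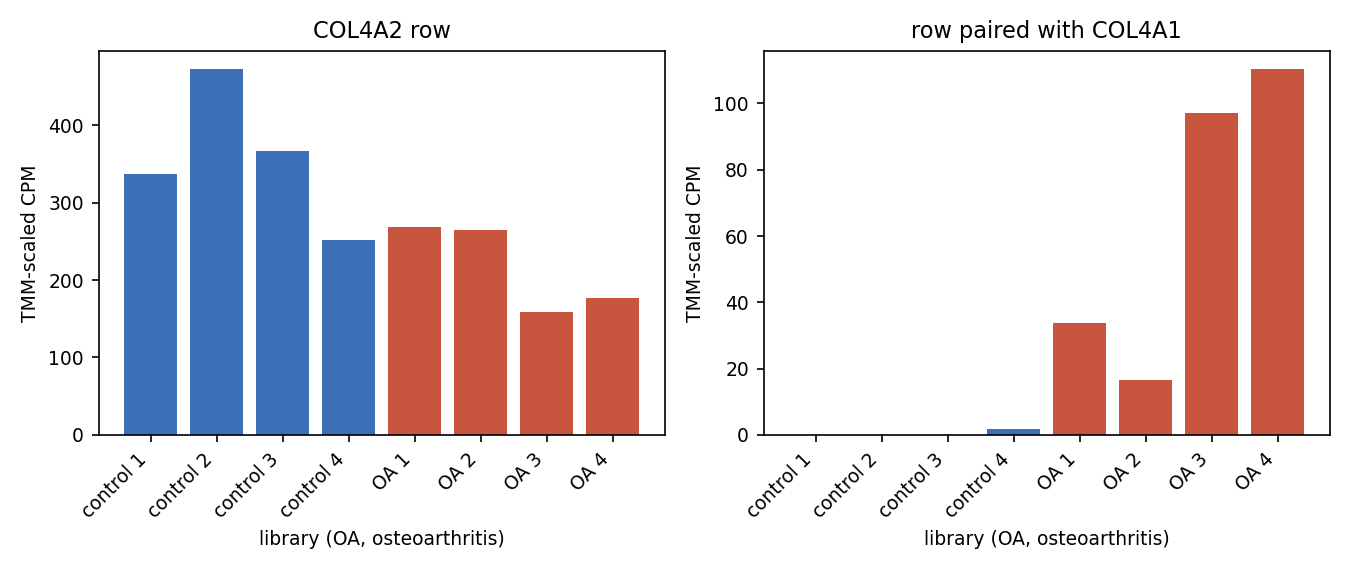
TMM-scaled CPM of COL4A2 and of the unnamed row paired with COL4A1 in each library. COL4A2 lies between 158.7 and 472.8 CPM in all 8 libraries, while the other row is at 0 in control replicates 1 to 3 and between 16.5 and 110.4 CPM in osteoarthritis.

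The balance of COL4A2 to its partners was examined with 2 ratios added after the COL4A1 row had been seen. COL4A2 to NID1 by TPM was 10.3, 5.32, 9.51 and 2.04 in controls and 2.68, 2.42, 1.08 and 1.62 in osteoarthritis. Control replicates 1 to 3 were above every osteoarthritis library and control replicate 4 was not (log2 difference of -1.64, exact permutation p = 0.086, adjusted 0.14). The ratio of COL4A2 to COL6A1 (-1.28, exact permutation p = 0.23, adjusted 0.33) and the planned ratio of HSPG2 to NID1 (-0.04, exact permutation p = 1.0) overlapped between the groups.

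**Figure D4:**
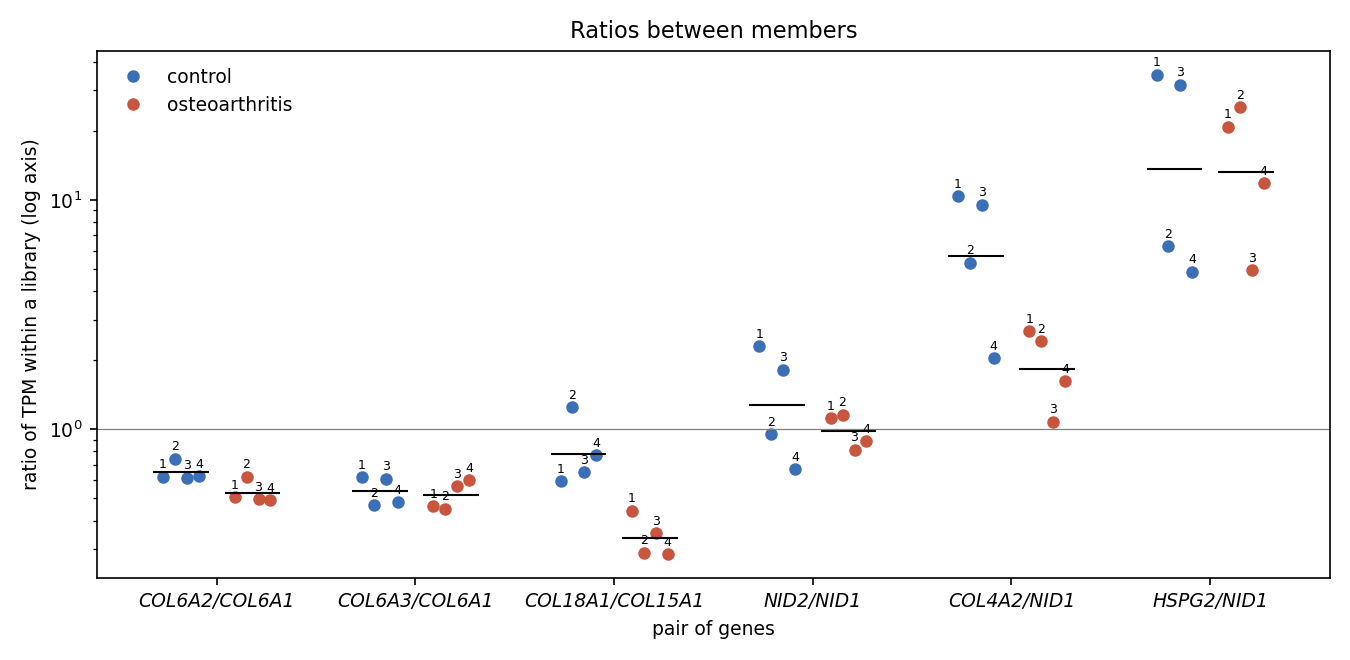
Ratios of TPM between pairs of members within each library (log axis), with replicate numbers and a bar at the geometric mean of each group. COL18A1/COL15A1 is 0.595 to 1.25 in controls and 0.286 to 0.441 in osteoarthritis, the 1 pair shown here whose groups do not overlap.

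Within a library, members can be ordered by TPM. COL6A1 was the highest of the 9 in every library, followed by COL6A2, HSPG2 and COL6A3 in changing order, each between 2nd and 5th. COL4A2 was 4th or 5th throughout. COL15A1, NID1, NID2 and COL18A1 filled ranks 6 to 9, and their neighbours in that order changed places between libraries. Mean TPM (± SD, n = 4 in each group) of COL6A1 was 346.1 ± 319.1 among controls and 1179 ± 609.5 among osteoarthritis libraries. COL18A1, the lowest in 5 libraries, averaged 11.7 ± 3.25 and 18.8 ± 2.77 TPM.

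Those TPM levels also show that the direction of a difference between the groups depends on the scale. By the deposited TPM all 9 members were higher in osteoarthritis, COL18A1 and COL4A2 included, and 6 had groups without overlap, where 70.8% of all genes had groups without overlap and 70.7% were higher without overlap. The gene with the most TPM in each library took at least 34.7% of all TPM in every control and 17.6% to 22.8% in osteoarthritis. The median gene differed by 1.83 on the scale of log2(TPM + 0.1). Relative to that median, the differences were -1.12 for COL18A1, -0.66 for COL4A2, 0.09 for COL15A1, 0.94 for HSPG2, 0.95 for NID1 and 0.59 for NID2. COL6A1, COL6A2 and COL6A3 were 0.62, 0.31 and 0.55 above it. Limma on these TPM values called 7 of the 9 members, all but COL4A2 and COL18A1, while calling 87.1% of all genes. With library size as the only scaling of the counts the median gene stood at 0.65, COL18A1 at -0.49 and COL4A2 at -0.05, 0 members called.

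**Figure D5:**
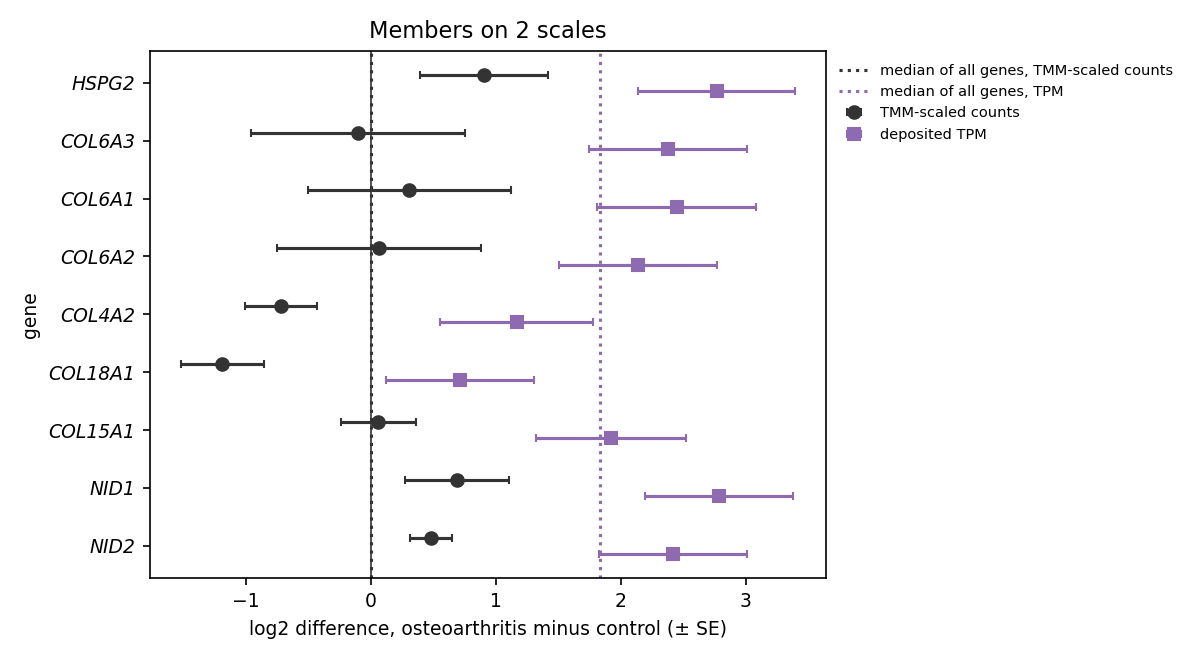
Log2 difference of each member between osteoarthritis and control (± SE), from TMM-scaled counts (circles) and from deposited TPM (squares), with the median of all genes on each scale as a dotted line. On both scales COL18A1 and COL4A2 lie to the left of the median gene, and HSPG2, NID1 and NID2 to the right.

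Other genes of basement membranes and the pericellular matrix were read from 5 lists, of which 73 genes were tested and 5 called. Of all 16020 genes tested, 0.618% were called, 15.2% had an unadjusted p under 0.05 and 11.2% had groups without overlap. The lists were chosen with earlier results of these data known, so their counts only describe them. Laminins and agrin, the other main parts of basement membranes, had 1 of 12 tested genes higher, with a list median of -0.02. LAMA2, the alpha-2 chain of muscle and nerve basement membranes, had 0 counts in all 4 controls and 52, 40, 42 and 41 counts in osteoarthritis. Against a floor of 3 counts over the controls this is at least 30.1-fold higher (edgeR adjusted p = 0.044), and the call was lost without any 1 of the 8 libraries. The chains that pair broadly in vessel and cartilage basement membranes were not called: LAMA4 was at 199.5 ± 75.3 and 280.1 ± 44.5 CPM and LAMC1 at 157.1 ± 41.7 and 183.0 ± 13.7 CPM, these genes chosen after their values were seen.

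Among other collagens of these layers, 1 of 5 tested was lower and 0 were higher, beside 0.393% and 0.225% of all genes. COL17A1, a collagen of epithelial hemidesmosomes, fell from 9.95 ± 5.36 to 0.529 ± 0.32 CPM (-4.22 ± 0.52, edgeR adjusted p = 0.014), a call lost without osteoarthritis replicate 2 or 4. COL8A2, a short-chain collagen, was at 152.6 ± 70.7 and 81.6 ± 21.7 CPM (-0.90 ± 0.40, edgeR adjusted p = 0.33). Basal epithelial markers moved with COL17A1. The 7 markers, COL17A1 itself among them, summed to 95.0 to 391.1 CPM in controls and 1.30 to 2.46 CPM in osteoarthritis, 6 of 6 tested were lower, and TP63 was at 0 in 3 osteoarthritis libraries. Their part in these values was not tested.

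Of 20 receptors for these matrices 2 were lower and 0 higher, beside 0.393% and 0.225% of all genes, with a list median of 0.27. ITGA3, a laminin-binding integrin chain, fell from 7.60 ± 1.25 to 1.67 ± 0.81 CPM (-2.20 ± 0.36, edgeR adjusted p = 0.037), called without control replicate 4 or osteoarthritis replicate 2 and lost without any other single library. ITGA7, the laminin-binding chain of muscle, fell from 8.28 ± 0.61 to 3.85 ± 0.25 CPM (-1.10 ± 0.18, edgeR adjusted p = 0.039). That call was lost without any 1 of the 8 libraries, while its log2 fold change stayed between -1.16 and -1.07.

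Enzymes and chaperones of collagen assembly had 0 of 17 called by edgeR. At an unadjusted p under 0.05, which 15.2% of all genes reached, 2 were higher and 1 was lower, and the list median was 0.24. LOXL1, a lysyl oxidase, was at 51.8 ± 15.0 and 25.5 ± 9.15 CPM (-1.02 ± 0.30, edgeR adjusted p = 0.17). LOXL4, of the same family, was at 3.97, 56.2, 2.73 and 76.3 CPM in controls and 268.1, 247.9, 110.2 and 104.9 CPM in osteoarthritis. Its groups did not overlap, as in 11.2% of all genes (2.39 ± 0.99, edgeR adjusted p = 0.30). Linker and pericellular proteins had 0 of 19 called by edgeR. Here 4 were higher and 1 was lower by the unadjusted p, with a list median of 0.68. EMILIN1, an elastic fibre glycoprotein, was lower without overlap at 211.6 ± 27.4 and 98.4 ± 27.9 CPM (-1.11 ± 0.25, edgeR adjusted p = 0.089), and MATN3, a cartilage matrilin, was at 9.82 ± 13.3 and 84.8 ± 50.0 CPM (3.09 ± 0.98, edgeR adjusted p = 0.20). Of these 2 lists DESeq2 called LOXL1, EMILIN1, FN1, MATN3 and SPARC.

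The genes most like each member over the 8 libraries were looked up among tested genes with a symbol and a mean log2 CPM of at least 2. For COL6A1 they were EIF4G1, MATN2 and GLI1 (r = 0.994, 0.993 and 0.991), for COL6A3 they included HHIPL1 and SOX5 (r = 0.994 and 0.993), and for HSPG2 ATP8B2, RABAC1 and COL27A1 (r = 0.996, 0.994 and 0.994). COL18A1 was most like the ribosomal protein genes RPS16 and RPS21 and NOM1 (r = 0.995, 0.992 and 0.983), whose counts may be shared with near-identical copies. NID1 was most like ST3GAL5, PEX19 and WIF1 (r = 0.998, 0.993 and 0.993). The nearest genes of COL6A2 were SHISA2, COL7A1 and COL6A1 (r = 0.991, 0.990 and 0.987) and those of COL15A1 were FNDC1, RARG and PAF1 (r = 0.985, 0.979 and 0.978). COL4A2 was most like NOM1, FXR2 and COL18A1 (r = 0.983, 0.982 and 0.978), and the row paired with COL4A1 was most like GALNT5, SLC23A2 and ENPP1 (r = 0.990, 0.982 and 0.978). NID2 was most like KDM5B, ABCC1 and TMEM127 (r = 0.970, 0.955 and 0.950). These are descriptions over 8 points that share library makeup.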

How the data were processed

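The authors' deposited table holds estimated counts per gene (whole numbers), TPM, log2 of TPM (8 columns, not used) and effective lengths for 8 libraries. The submitters' processing notes name MultiQC 1.13, DESeq2 1.26.0, Salmon 1.1.0, StringTie 2.1.0, STAR 2.7.9a and Trim Galore 0.6.7 and give no roles. Per the labels' protocols, ribosomal RNA was depleted and libraries keep strand. The deposited TPM equal the counts divided by length and rescaled.

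The members and lists were chosen with earlier results of these data known. Counts passed filterByExpr, were TMM-scaled and were tested with edgeR 4.0.16 (robust quasi-likelihood, R 4.3.3), group as the sole term, with Benjamini-Hochberg adjustment over 16020 genes. Each SE was taken as the absolute log2 fold change over root F. DESeq2 1.42.0 and limma 3.58.1 were alternatives. Ratios used the exact permutation test over 70 assignments. Named genes were all members and, per list, the called genes and the 2 with the smallest p. Added after seeing the data were fits on protein-coding genes and on TPM (limma, pseudocount 0.1), and 2 ratios. The genes most like each member were the 3 with the highest Pearson r over log2 CPM. A planned description of promoter and protein sequences was not run. Some genes the rule names are not reported here.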

Additional observations from a re-analysis of the deposited data

Results flagged for a closer look

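Of 34 groups of 4 values screened (the 10 rows and 7 ratios in each group), 4 had 1 library far from the other 3, by a gap whose share of the group's whole range was above Dixon's critical value. Chance flags about 1 in 20 groups. For the row paired with COL4A1 the share was 1 in controls, since control replicate 4 alone was above 0, at 1.86 CPM. NID1 in osteoarthritis reached 0.830, with replicate 3 at 149.6 CPM and the others at 107.8 to 114.9 CPM. The ratio of COL6A2 to COL6A1 reached 0.912 in controls, where replicate 2 was at 0.743 and the others at 0.615 to 0.626. The same ratio reached 0.891 in osteoarthritis, where replicate 2 was at 0.621 and the others at 0.491 to 0.505.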

How the results depend on the processing

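The count of called genes, 99 in all with 36 higher and 63 lower, was 214 with library size alone (186 higher, 28 lower), 836 in DESeq2, 3329 in sample-weighted limma-voom, 31 with controls 1 and 3 summed, 49 on protein-coding genes with library size alone (32 higher, 17 lower), 13960 on TPM with limma, and 14 to 152 with 1 library left out (controls 1 to 4: 31, 52, 28 and 152, osteoarthritis 1 to 4: 17, 33, 90 and 14). Called members numbered 0 in edgeR, also with any 1 library left out, 1 in DESeq2, 4 in sample-weighted limma-voom and 7 on TPM. The last moved COL6A3 from -0.10 to 2.38. Called partner genes, 5, numbered 12 in DESeq2, 22 in sample-weighted limma-voom, 2 with controls 1 and 3 summed, 3 on protein-coding genes with library size alone, 65 on TPM and 1 to 4 with 1 library left out. With the replicate number as a block, 1 gene, 0 members and 0 partners were called, but same-numbered samples did not deviate together (correlations of -0.02, -0.08, -0.34 and -0.18), and no control correlated best with its own number. Under that pairing the COL18A1 to COL15A1 difference stayed at -1.21 with an exact sign-flip p of 0.125, the smallest possible. From counts with no length, the COL6A2 to COL6A1 difference was -0.35 (exact permutation p = 0.029). This was not computed for ratios with the COL4A1 row. With 1 library left out, HSPG2 to NID1 ranged from -0.53 to 0.44 and COL6A3 to COL6A1 from -0.14 to 0.00084, crossing 0. The other 8 ratios kept their direction (COL18A1 to COL15A1 -1.34 to -0.99). The cause of these moves was not tested.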

Other observations

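LAMA2 was 1 of 8 rows in the table with 0 counts in all 4 controls and at least 10 counts in every osteoarthritis library. In the opposite direction 3 rows had 0 counts in all osteoarthritis libraries and at least 10 in every control. LAMB3 and LAMA3, laminin chains chosen after their values were seen, were not called. LAMB3 was at 9.78, 10.1, 6.25 and 6.62 CPM in controls and 4.55, 3.13, 1.27 and 0.828 CPM in osteoarthritis. Its groups did not overlap, as in 11.2% of all genes (-1.77 ± 0.51, edgeR adjusted p = 0.16). LAMA3 overlapped, at 38.2, 3.46, 37.6 and 5.64 CPM in controls and 5.84, 26.7, 3.19 and 18.9 CPM in osteoarthritis (-0.65 ± 0.88, edgeR adjusted p = 0.77).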
